A study of Mus musculus with 6 samples.

Results

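Cholesterol genes were compared between mouse adipocyte precursor cells that overexpressed PPARγ2 K382Q and cells that overexpressed PPARγ2 K382R. The set held 30 genes, which were found by their gene names in the expression tables out of 56884 gene IDs. It comprised 18 enzymes of cholesterol synthesis, 4 genes that control SREBP2, 4 genes of uptake and transport inside the cell, and 4 genes of efflux, esterification and receptor turnover. A gene was kept where its level was at least 0.5 TPM (transcripts of a gene per fixed total of transcripts, scaled for gene length) in at least 3 of the 6 libraries, and all 30 genes passed, among 15426 genes that passed in all. The lowest value of any of them in any library was 8.30 TPM, so that none lay near this minimum.

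The cells were an immortalised line from the stromal vascular fraction (SVF) of mouse subcutaneous white adipose tissue (scWAT), the fraction that contains adipocyte precursors. In K382Q, glutamine in place of the lysine mimics the acetylated residue, whereas arginine in K382R mimics the deacetylated one. Each HA-tagged mutant was brought in by a retroviral vector and selected with puromycin, and the endogenous receptor gene of the cells was not removed. Both groups, with 3 biological replicates each, were sampled at day 2 of beige adipocyte differentiation, after the same induction with IBMX, indomethacin, dexamethasone, insulin, T3 and rosiglitazone, a PPARγ agonist. Cells without a mutant receptor or with wild-type PPARγ2 were not analysed here, so each value compares the mutants with each other. The labels call the replicates biological and do not say how they were set up, and the p-values measure the spread between these samples.

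Cholesterol is built from acetyl-CoA by way of mevalonate, isoprenoid diphosphates, squalene and lanosterol, and the genes of this route are switched on together by the transcription factor SREBP2. SREBP2 is made as a membrane protein of the endoplasmic reticulum (ER). When ER cholesterol is low, the escort protein SCAP carries it to the Golgi, where proteases release its active part, and when cholesterol is high, INSIG proteins hold SCAP in the ER. Oxysterols act in the other direction through LXR nuclear receptors, which switch on cholesterol efflux. Adipocytes hold much of the free cholesterol of the body, at the surface of their lipid droplets and in the plasma membrane.

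In the libraries, the total aligned length was between 5.95 and 7.50 Gb in K382Q cells and between 6.53 and 8.15 Gb in K382R cells. Pparg, the gene of the overexpressed protein, was read at 1333, 1164 and 1104 TPM in K382Q replicates 1, 2 and 3 and at 1590.0, 1632 and 1612 TPM in K382R replicates 1, 2 and 3. The values of K382Q cells all lay below those of K382R cells. This level sums whatever the endogenous gene and the vector gave over the annotated exons, and it does not show which mutant a library carried.

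The promoters of 24 of the 30 genes were in the RefSeq table used here (build GRCm38.p6), as windows from 250 bases before to 50 bases after each start. SREBP2 binds sterol regulatory elements, often beside a CCAAT box bound by NF-Y or a GC box bound by Sp1, and some SREBP sites are E-boxes. Both strands were searched for the SRE-like letters TCACNCCAC and for the CCAAT box, which is spelled by its name. The GC box was searched for as GGGCGG. The E-box was searched for as CACGTG. Of the 24 genes, 20 (83.3%) had a CCAAT box in a window, against 41.1% of 27025 genes in the table and 43.3% of the 10219 genes in it that passed the expression minimum. The genes without one were Acat2, Scap, Lrp1 and Abca1. A GC box stood in 23 of the 24 (95.8%), all but Pmvk, against 38.2% of all genes and 68.4% of the expressed ones. An E-box stood in 6 of the 24 (25.0%), against 8.09% and 11.6%. The SRE-like letters were found in 1 of the 24, Hmgcs1 (4.17%), against 1.44% and 1.39%. These shares describe letters in a window, not binding. The 200 bases before the start of 5 genes follow, 5′ to 3′ on the strand of the gene, to show an early enzyme, the enzyme with the largest difference between the mutants, a further enzyme of the mevalonate branch, the ER retention gene Insig1 and Srebf2 itself. Capitals mark the matches, and a CCAAT or GC box on the opposite strand reads ATTGG or CCGCCC here. They lie at chr13:119690151-119690350 (Hmgcs1), chr10:76531405-76531604 (Lss), chr8:122443423-122443622 (Mvd, reverse strand), chr5:28071212-28071411 (Insig1) and chr15:82147069-82147268 (Srebf2).
Hmgcs1: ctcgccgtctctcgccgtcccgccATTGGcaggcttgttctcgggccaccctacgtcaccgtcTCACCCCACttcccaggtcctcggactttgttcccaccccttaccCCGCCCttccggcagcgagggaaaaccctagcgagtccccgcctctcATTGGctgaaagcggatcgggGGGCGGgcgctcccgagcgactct
Lss: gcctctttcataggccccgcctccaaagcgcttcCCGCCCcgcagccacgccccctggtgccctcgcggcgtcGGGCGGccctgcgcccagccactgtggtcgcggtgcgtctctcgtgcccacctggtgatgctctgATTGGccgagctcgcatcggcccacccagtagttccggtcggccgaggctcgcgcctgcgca
Mvd: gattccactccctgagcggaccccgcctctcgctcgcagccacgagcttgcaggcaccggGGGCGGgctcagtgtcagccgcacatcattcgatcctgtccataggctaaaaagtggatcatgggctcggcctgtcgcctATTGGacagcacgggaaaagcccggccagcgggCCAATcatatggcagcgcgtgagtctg
Insig1: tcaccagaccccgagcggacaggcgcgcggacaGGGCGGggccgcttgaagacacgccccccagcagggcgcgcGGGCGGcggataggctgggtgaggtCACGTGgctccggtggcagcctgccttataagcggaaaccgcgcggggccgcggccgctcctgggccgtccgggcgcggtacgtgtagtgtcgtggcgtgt
Srebf2: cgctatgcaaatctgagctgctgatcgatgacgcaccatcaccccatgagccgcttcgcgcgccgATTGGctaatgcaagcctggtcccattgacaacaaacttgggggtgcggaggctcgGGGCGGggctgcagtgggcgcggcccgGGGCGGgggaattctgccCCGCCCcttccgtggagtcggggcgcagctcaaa

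In these windows, the SRE-like match of Hmgcs1 lay 137 to 129 bases before the start, between CCAAT boxes at 176 to 172 and at 45 to 41 bases before it. The single CCAAT box of Lss lay 62 to 58 bases before its start. Mvd had a pair of them, at 60 to 56 and at 27 to 23 bases. Insig1 showed an E-box at 101 to 96 bases and GC boxes at 167 to 162 and at 126 to 121 bases. Srebf2 showed a CCAAT box at 135 to 131 bases and 3 GC boxes between 79 and 29 bases before its start. None of the marked matches overlapped another.

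At day 2 the genes of the route were well expressed, with a highest mean over lowest mean of 86.0 in K382R cells. TPM is scaled to gene length, so that levels can be compared between genes. In K382R cells, Insig1 had the highest mean level at 744 TPM, followed by Fdps at 374 and Hmgcs1 at 322. Acat2 (195), Npc2 (179), Sqle (167), Srebf2 (154) and Cyp51 (127) came next, and the replicates of each of these stood apart from those of its neighbours. Msmo1, Idi1 and Pmvk were close together, with means of 113, 110.5 and 107 TPM and replicates that overlapped between neighbours. Fdft1, Dhcr7, Mvk and Npc1 also overlapped in turn, at means from 38.8 to 37.3 TPM, as did Sc5d (27.5) and Abcg1 (26.4). Tm7sf2 at 11.8 and Mylip at 8.65 TPM were the lowest. Of the 29 pairs of neighbours in this order, 6 overlapped. The coefficient of variation between replicates had a median of 3.32% over the genes and groups, and at most 11.8%.

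**Figure D1:**
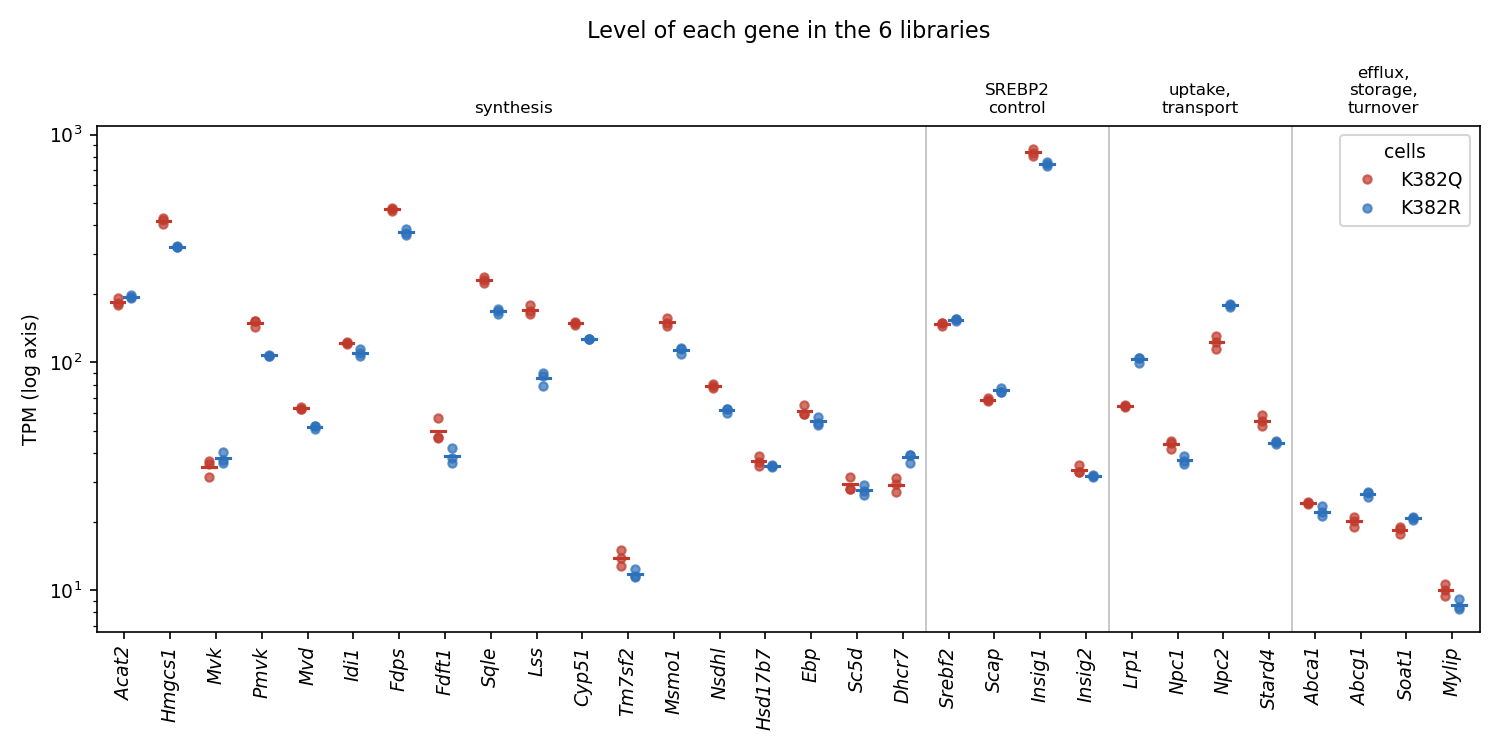
Level of each of the 30 genes in TPM on a log axis, by role. Points are single libraries (3 of K382Q and 3 of K382R cells) and bars are group means. Insig1 is the highest gene and Mylip the lowest, and Lss and Lrp1 show a wide gap between the mutants in opposite directions.

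Most enzymes of cholesterol synthesis were expressed at higher levels in K382Q than in K382R cells, by up to 1.99-fold for Lss, whereas the receptor Lrp1 and the lysosomal carrier Npc2 were lower. By limma on log2(TPM + 0.5) with Benjamini-Hochberg adjustment over all genes tested, 16 of the 30 genes were higher in K382Q cells at an adjusted p under 0.05, 6 were lower and 8 were not called. Over all 15426 genes tested, 11.1% were called higher and 36.9% lower, against 53.3% and 20.0% of the cholesterol genes. The median log2 fold change (K382Q minus K382R, here and below) was 0.16 over the 30 genes and −0.14 over all genes tested. The groups did not overlap in 27 of the 30 genes, against 57.0% of all genes tested. The fold change stayed within 2 for all 30 genes, while 3.88% of all genes tested were called with a change over 2-fold. An unadjusted p under 0.05 was reached by 24 of the 30, beside 54.2% of all genes tested. Lss, at 1.99-fold, passed 2-fold when K382Q replicate 3, K382R replicate 1 or K382R replicate 2 was left out.

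TPM gives shares of a fixed total, and the shift of the median gene bears on each direction. After median-ratio scaling, which brought the median of all genes to 0.0039, 22 of the cholesterol genes were higher and 4 were lower, against 19.9% and 20.4% of all genes tested. The 16 genes called higher on the deposited scale were called higher on this scale as well. Of the 6 lower ones, Dhcr7, Lrp1, Npc2 and Abcg1 were lower on both scales, and Scap and Soat1 were not called after scaling. The 6 further genes called higher after scaling were Hsd17b7, Sc5d, Srebf2, Insig2, Abca1 and Mylip, and Acat2 and Mvk were called on neither scale. The median of the 30 genes was 0.31 after scaling.

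**Figure D2:**
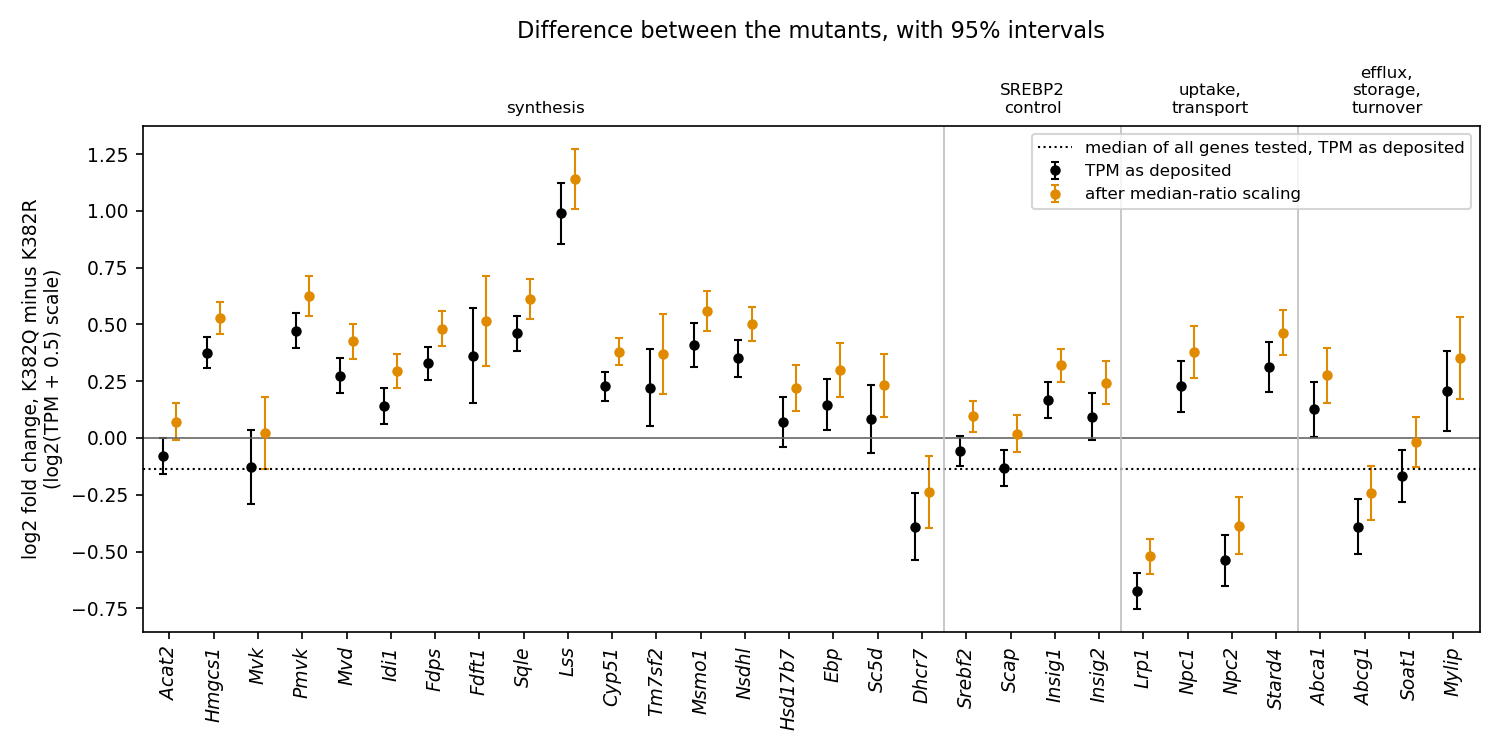
Log2 fold change of each gene (K382Q minus K382R, log2(TPM + 0.5) scale) with 95% intervals from limma, n = 3 per group. Black points use the TPM as deposited, orange points the TPM after median-ratio scaling, and the dotted line is the median of all genes tested at −0.14. Lss stands highest at 0.99 and Lrp1 lowest at −0.67, and scaling moves every gene up by a similar step.

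Of the 18 synthesis enzymes, 13 rose, 1 fell and 4 were not called, which is 72.2% higher and 5.56% lower, beside 11.1% and 36.9% of all genes tested. Their median log2 fold change was 0.25, and 0.40 after median-ratio scaling, when 15 were higher and 1 lower, beside 19.9% and 20.4% of all genes. Added together, they made up 2457, 2426 and 2436 TPM in K382Q replicates 1, 2 and 3 and 1965, 1972 and 1943 TPM in K382R replicates 1, 2 and 3. The sums of the mutants were far apart in comparison with the spread between replicates.

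The first steps make mevalonate and turn it into the 5-carbon isoprenoid units. Acat2, a cytosolic thiolase that joins acetyl-CoA units, was at 184 ± 7.05 TPM in K382Q and 195 ± 2.36 in K382R cells (mean ± SD, n = 3, here and below), and it was not called (adjusted p = 0.0935 by limma with Benjamini-Hochberg adjustment, as for all adjusted p-values below). Without K382Q replicate 3 its adjusted p was 0.0337, which made it a second enzyme called lower. Hmgcs1, the HMG-CoA synthase of the cytosol (ENSMUSG00000093930.3, chr13:120151915-120169796, GRCm39), was read at 420.4, 406 and 429 TPM in K382Q replicates 1 to 3 and at 324, 320.5 and 323 TPM in K382R replicates 1 to 3. All values of K382Q cells were above all values of K382R cells, and the mean was 29.8% higher (log2 fold change 0.38, SE 0.0292, adjusted p = 3.72e-05). Mvk, the mevalonate kinase, was at 34.8 ± 2.94 and 38.0 ± 2.15 TPM, with groups that overlapped and no call (adjusted p = 0.174). Its 95% interval ran from −0.29 to 0.04.

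Phosphomevalonate kinase is encoded by Pmvk (ENSMUSG00000027952.17, chr3:89361848-89376320). It was read at 143, 152 and 153 TPM in the K382Q libraries and at 107, 108 and 107 TPM in the K382R libraries. The K382R replicates were nearly equal, the groups were far apart, and the mean rose by 39.0% (log2 fold change 0.47, SE 0.0339, adjusted p = 2.49e-05). Mvd, which decarboxylates mevalonate diphosphate, was at 62.6, 63.7 and 62.7 TPM in K382Q and at 50.9, 52.7 and 52.5 TPM in K382R libraries. It was thus 21.1% higher without overlap (adjusted p = 0.000355). Idi1, the isomerase that supplies the starter unit for isoprenoid chains, rose by only 10.4%, from 110.5 ± 3.75 to 122 ± 1.06 TPM (adjusted p = 0.00993). Fdps, the farnesyl diphosphate synthase and the most abundant enzyme of the set, was at 470.3, 474 and 463 TPM in K382Q and at 386, 372 and 364 TPM in K382R libraries. The increase of 25.5% did not involve any overlap (log2 fold change 0.33, SE 0.0309, adjusted p = 9.58e-05).

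From farnesyl diphosphate, the committed route to sterols runs through squalene to lanosterol. Fdft1, the squalene synthase, was at 56.9, 47.0 and 46.5 TPM in K382Q and at 36.1, 42.2 and 38.1 TPM in K382R libraries. K382Q replicate 1 stood above the other replicates, and the mean was 29.2% higher with the largest standard error among the 18 enzymes (log2 fold change 0.36, SE 0.0895, adjusted p = 0.0117). Sqle, the squalene epoxidase and a control point of the route (ENSMUSG00000022351.15, chr15:59186926-59203041), was at 224, 237 and 230.5 TPM in K382Q and at 171, 168 and 163 TPM in K382R libraries. Its mean rose by 37.7% without overlap (log2 fold change 0.46, SE 0.0331, adjusted p = 2.55e-05).

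Lss encodes lanosterol synthase, which folds squalene epoxide into the first sterol (ENSMUSG00000033105.13, chr10:76367422-76392972). It was read at 179, 169 and 163 TPM in K382Q replicates 1 to 3 and at 90.1, 87.4 and 78.9 TPM in K382R replicates 1 to 3. The lowest K382Q library was well above the highest K382R library, and the mean was 1.99-fold higher (log2 fold change 0.99, SE 0.0575, 95% interval 0.86 to 1.12, adjusted p = 9.02e-06). On the median-ratio scale, the 95% interval ran from 1.01 to 1.27. Its interval lay above those of all other 29 genes on the deposited scale, among which Pmvk came next with an upper bound of 0.55 and Fdft1 reached the highest upper bound at 0.57.

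Between lanosterol and cholesterol, Cyp51, Msmo1, Nsdhl, Tm7sf2 and Ebp were called higher. Hsd17b7 and Sc5d had small positive log2 fold changes and were not called, and Dhcr7 was called lower. Cyp51, the lanosterol demethylase, was at 150.2, 147 and 149 TPM in K382Q libraries and at 127 TPM in each K382R library, a gap of 17.2% (log2 fold change 0.23, adjusted p = 0.000305). Msmo1, the methylsterol oxidase, was at 157, 145 and 149 TPM in K382Q and at 109, 115 and 116 TPM in K382R libraries. It was 32.8% higher (log2 fold change 0.41, SE 0.0416, adjusted p = 0.000147). Nsdhl, its partner dehydrogenase in the removal of the C-4 methyl groups, was at 80.7, 78.4 and 77.2 TPM in K382Q and at 60.1, 62.5 and 62.5 TPM in K382R libraries, which is 27.7% higher (adjusted p = 0.000128). For Cyp51, Msmo1 and Nsdhl, every K382Q library was above every K382R library.

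The third enzyme of the demethylation complex, the ketoreductase Hsd17b7, was not called, at 36.8 ± 1.93 and 35.0 ± 0.331 TPM (log2 fold change 0.07, 95% interval −0.04 to 0.18, adjusted p = 0.272). K382Q replicate 2 lay among the K382R values. Tm7sf2, a sterol C-14 reductase, was at 13.9 ± 1.09 and 11.8 ± 0.514 TPM (adjusted p = 0.038). Ebp, the isomerase that moves the ring double bond, was at 61.2 ± 3.09 and 55.2 ± 2.25 TPM (adjusted p = 0.0392). Both calls were lost when some single libraries were left out, with log2 fold changes still above 0. For Tm7sf2, with 0.22 in all libraries and 0.17 to 0.23 in these, the adjusted p was 0.0808 without K382Q replicate 2, 0.121 without K382Q replicate 3, 0.0995 without K382R replicate 1 and 0.108 without K382R replicate 2. For Ebp, with 0.15 in all libraries and 0.11 to 0.17 in these, it was 0.104, 0.0531, 0.123 and 0.105 when the same libraries were left out. Sc5d, the desaturase, overlapped between the groups at 29.2 ± 2.06 and 27.5 ± 1.45 TPM (log2 fold change 0.08, 95% interval −0.07 to 0.23, adjusted p = 0.332).

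Dhcr7, the reductase that turns 7-dehydrocholesterol into cholesterol, moved in the opposite direction (ENSMUSG00000058454.16, chr7:143376882-143402147). It was at 26.9, 31.1 and 29.3 TPM in K382Q libraries and at 39.2, 39.3 and 36.3 TPM in K382R libraries. Every K382Q library was below every K382R library, and the mean fell by 23.9% (log2 fold change −0.39, SE 0.0629, adjusted p = 0.00148). After median-ratio scaling it was still lower (log2 fold change −0.24, adjusted p = 0.0253). It was the only one of the 18 enzymes called lower, on both scales.

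On the deposited scale, the 4 genes that control SREBP2 changed little. Here 1 was called higher and 1 lower, beside 11.1% and 36.9% of all genes tested. After median-ratio scaling, 3 were higher and 0 lower, beside 19.9% and 20.4% of all genes tested. Srebf2, the gene of SREBP2, was at 148, 149.7 and 145 TPM in K382Q and at 154, 152 and 155 TPM in K382R libraries. The groups did not overlap but lay close together, and Srebf2 was not called (log2 fold change −0.06, SE 0.0286, 95% interval −0.12 to 0.01, adjusted p = 0.136). After median-ratio scaling, its log2 fold change was 0.09 (adjusted p = 0.0323), so that its sign depended on the scale. Scap, the escort of SREBP2, was at 68.6, 70.2 and 67.6 TPM in K382Q and at 74.2, 77.5 and 74.6 TPM in K382R libraries. It fell by 8.82% on the deposited scale (log2 fold change −0.13, adjusted p = 0.0145). This call was lost without K382Q replicate 3 (adjusted p = 0.0517) or K382R replicate 2 (0.0573), and the log2 fold change was 0.02 after median-ratio scaling.

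Insig1, the ER retention factor whose transcription SREBP2 itself drives (ENSMUSG00000045294.12, chr5:28276361-28283660), was at 867, 809.6 and 828 TPM in K382Q libraries. In K382R libraries it was at 742, 758 and 731 TPM, all below the K382Q values. Its mean was 12.3% higher in K382Q cells (log2 fold change 0.17, SE 0.0336, adjusted p = 0.00451). After median-ratio scaling, its log2 fold change was 0.32 (adjusted p = 0.000171). With quantile normalization, its log2 fold change was 0.06 and it was not called (adjusted p = 0.335). Insig2, the related factor that does not follow SREBP2 in the same way, was at 33.8 ± 1.49 and 31.7 ± 0.245 TPM and was not called (log2 fold change 0.09, adjusted p = 0.126), although the groups did not overlap. It was called higher after median-ratio scaling (log2 fold change 0.24, adjusted p = 0.00234). The difference between K382Q and K382R cells in the 2 Insig genes was not tested against each other.

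Among the genes of uptake and transport, 2 rose and 2 fell, on both scales. Beside these counts stand 11.1% higher and 36.9% lower of all genes tested on the deposited scale, and 19.9% and 20.4% after median-ratio scaling. Lrp1 encodes a large endocytic receptor for apolipoprotein E-rich particles and many other ligands (ENSMUSG00000040249.16, chr10:127374030-127457017). It was at 64.7, 64.8 and 63.9 TPM in K382Q libraries and at 99.7, 104.7 and 105 TPM in K382R libraries. The K382Q libraries were nearly equal and all far below those of K382R cells, and the mean fell by 37.5% (log2 fold change −0.67, SE 0.0336, 95% interval −0.75 to −0.60, adjusted p = 4.45e-06). After median-ratio scaling, the log2 fold change was −0.52 (adjusted p = 1.89e-05).

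NPC2 and NPC1 act in sequence in the late endosome, where soluble NPC2 hands cholesterol to the membrane protein NPC1 for export. Their transcripts moved in opposite directions. Npc2 (ENSMUSG00000021242.10, chr12:84801336-84819926) was at 115, 131 and 123 TPM in K382Q and at 179, 181 and 176 TPM in K382R libraries. The groups were far apart, and the mean fell by 31.2% (log2 fold change −0.54, SE 0.0483, adjusted p = 7.59e-05). Npc1 was at 44.3, 45.2 and 41.7 TPM in K382Q and at 39.0, 37.0 and 35.9 TPM in K382R libraries. It was 17.3% higher without overlap (log2 fold change 0.23, SE 0.0491, adjusted p = 0.00639). Stard4, a cytosolic carrier that moves cholesterol between membranes, was at 58.7, 52.4 and 55.3 TPM in K382Q and at 44.6, 45.1 and 44.0 TPM in K382R libraries. Its mean was 24.6% higher, again with no overlap (log2 fold change 0.31, SE 0.0471, adjusted p = 0.00104).

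Efflux is carried out by ABCA1, which loads cholesterol onto lipid-free apolipoprotein, and ABCG1, which passes it to mature HDL particles. Both are known targets of LXR. Abca1 was at 23.8, 24.5 and 24.3 TPM in K382Q and at 22.0, 21.1 and 23.4 TPM in K382R libraries. The groups did not overlap, but the gene was not called (log2 fold change 0.13, SE 0.0522, adjusted p = 0.083), and without K382R replicate 3 its adjusted p was 0.0443. Abcg1 was at 20.1, 21.0 and 19.0 TPM in K382Q and at 25.7, 26.6 and 27.0 TPM in K382R libraries. It fell by 24.1% without overlap (log2 fold change −0.39, SE 0.0522, adjusted p = 0.000566) and by 0.24 on the log2 scale after median-ratio scaling (adjusted p = 0.00764).

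Soat1, the enzyme of most tissues that esterifies cholesterol for storage, was at 18.6, 18.9 and 17.7 TPM in K382Q and at 20.3, 20.8 and 21.0 TPM in K382R libraries. The groups were separate, and it fell by 11.2% on the deposited scale (log2 fold change −0.17, SE 0.0488, adjusted p = 0.0232). The adjusted p was 0.0785 without K382Q replicate 3, 0.0683 without K382R replicate 2 and 0.0708 without K382R replicate 3, and the log2 fold change was −0.02 after median-ratio scaling. Mylip, a ubiquitin ligase that marks lipoprotein receptors for degradation, was at 9.45, 10.7 and 10.1 TPM in K382Q and at 9.16, 8.48 and 8.30 TPM in K382R libraries. It was not called (log2 fold change 0.21, SE 0.0754, adjusted p = 0.0533), although each K382Q library was above each K382R library. Without K382Q replicate 1, its adjusted p was 0.0408.

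**Figure D3:**
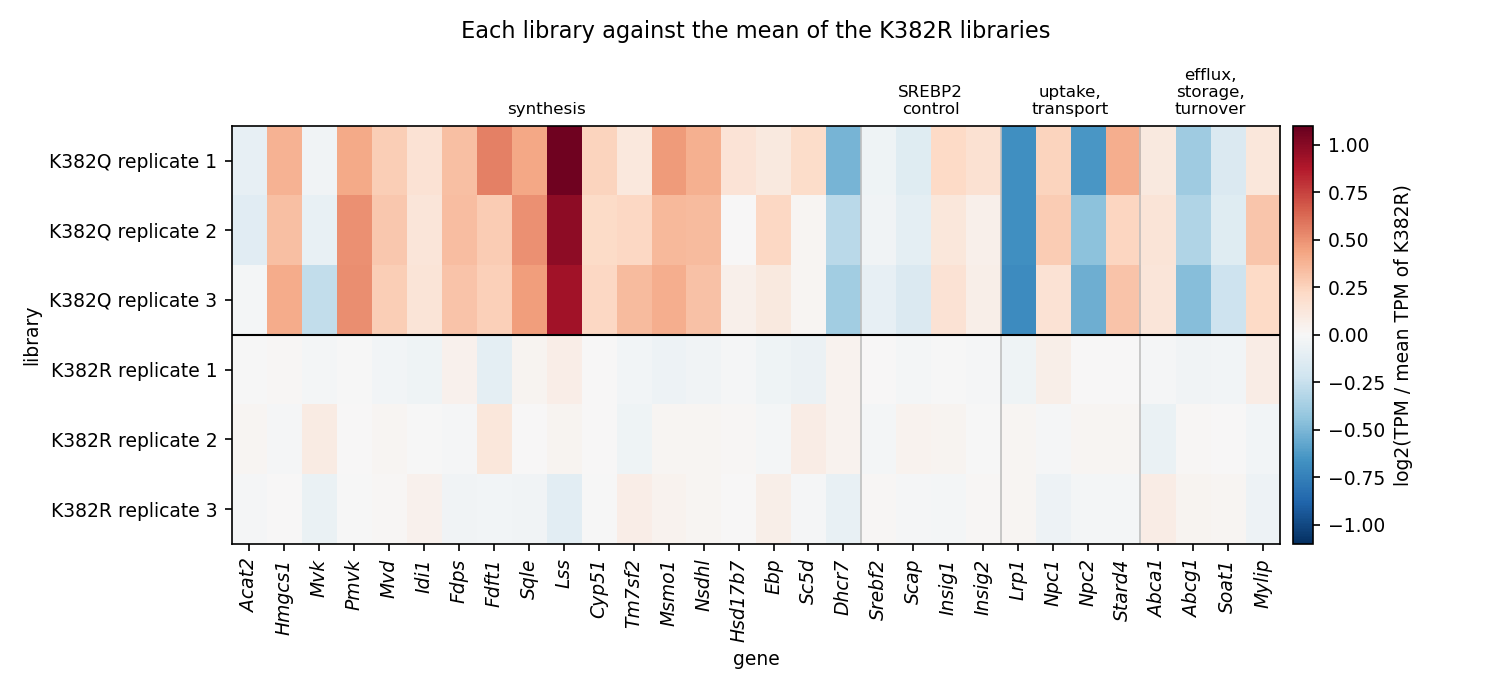
Each library (rows) against the mean TPM of the K382R libraries, as log2 ratios, for the 30 genes (columns, by role), red above and blue below. The K382Q replicates carry the same colour in most columns, darkest red in Lss and darkest blue in Lrp1. The K382R replicates lie around 0 because their own mean is the reference.

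Other genes around the pathway were read in 4 lists. Of 14 genes of SREBP processing and sterol-regulated degradation, 8 were lower, 1 was higher and 5 were not called (57.1% lower and 7.14% higher, against 36.9% and 11.1% of all genes tested). Their median log2 fold change was −0.17, against −0.14 for all genes tested. After median-ratio scaling, 4 were lower and 3 higher with a median of −0.023, beside 20.4% and 19.9% over all genes tested. Rnf145, an ER ubiquitin ligase of the sterol response, fell from 39.3 ± 2.55 TPM in K382R to 24.2 ± 0.429 TPM in K382Q cells (log2 fold change −0.69, adjusted p = 4.17e-05, and −0.54 after scaling). Pgrmc1, a haem-binding membrane protein that partners cytochrome P450 enzymes, fell from 472 ± 7.25 to 348 ± 11.8 TPM (log2 fold change −0.44, adjusted p = 3.06e-05, and −0.29 after scaling). Spring1, which is needed for the protease that cuts SREBPs, was at 9.62 ± 0.837 TPM in K382R and 7.25 ± 0.242 TPM in K382Q cells (log2 fold change −0.38, adjusted p = 0.00597), and it was no longer called after scaling (adjusted p = 0.0508). The 1 gene called higher was Erlin1, a cholesterol-binding ER protein, at 90.6 ± 2.75 TPM in K382Q and 81.9 ± 2.71 TPM in K382R cells (log2 fold change 0.15, adjusted p = 0.0164). It lost its call without K382R replicate 2 (adjusted p = 0.0602) or K382R replicate 3 (0.0555), which left 0 higher genes in this list.

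The isoprenoid branch leaves the route at farnesyl diphosphate, just before squalene, and makes prenyl anchors, dolichol and the tail of coenzyme Q. Of its 14 genes, 8 were lower, 1 was higher and 5 were not called (57.1% and 7.14%, beside 36.9% and 11.1% of all genes tested). The median of −0.16 was close to the −0.14 of all genes tested. After median-ratio scaling, 3 were lower and 2 higher with a median of −0.0067, beside 20.4% and 19.9% of all genes. Nus1, a subunit of the enzyme that builds dolichol chains, fell from 235 ± 2.42 to 164 ± 3.64 TPM (log2 fold change −0.51, adjusted p = 7.47e-06). Zmpste24, a protease for farnesylated proteins, had a log2 fold change of −0.38 (adjusted p = 0.000385), and Coq2, which attaches the coenzyme Q tail, one of −0.33 (adjusted p = 0.000196). Fntb, the β subunit of protein farnesyltransferase, rose from 13.3 ± 0.976 to 17.4 ± 0.783 TPM (log2 fold change 0.38, adjusted p = 0.00268). These 4 genes kept their calls after scaling.

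Of 15 genes of LXR and oxysterol action, 12 passed the expression minimum, and Ch25h, Cyp7b1 and Abcg4 did not reach it. Among the 12, 1 was higher, 2 were lower and 9 were not called, which is 8.33% higher and 16.7% lower, beside 11.1% and 36.9% of all genes tested. The list had a median of 0.040 on the deposited scale and 0.19 after median-ratio scaling, when 5 were higher and 2 lower, beside 19.9% and 20.4% of all genes. A second gene was called higher without K382R replicate 1. Lpcat3, an enzyme of phospholipid remodelling and an LXR target, rose from 259.7 ± 4.52 to 328 ± 3.19 TPM (log2 fold change 0.34, adjusted p = 4.12e-05). Arl4c, a small GTPase that is also an LXR target, fell from 9.26 ± 0.557 to 4.58 ± 0.437 TPM (log2 fold change −0.94, adjusted p = 0.00012). Ncoa1, a coactivator of nuclear receptors, had a log2 fold change of −0.33 (adjusted p = 0.000746).

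Of 19 further genes of lipoprotein receptors and intracellular cholesterol transport, 17 passed the minimum, without Lrp2 and Gramd1c. Here 8 were higher, 3 were lower and 6 were not called, and the median was 0.048 (0.20 after median-ratio scaling, with 9 higher and 1 lower). The shares called higher and lower, 47.1% and 17.6%, stood beside 11.1% and 36.9% of all genes tested (19.9% and 20.4% after scaling), and 2 genes were called past 2-fold, beside 3.88% of all genes. These were Vldlr, a receptor for triglyceride-rich lipoproteins, which rose from 44.0 ± 2.37 to 91.3 ± 3.82 TPM (log2 fold change 1.05, adjusted p = 4.12e-06), and Gramd1b, a protein that carries cholesterol from the plasma membrane to the ER, which rose from 46.9 ± 2.23 to 95.0 ± 10.3 TPM (log2 fold change 1.01, adjusted p = 3.13e-05). Gramd1b lay within 2-fold without K382Q replicate 2 (log2 fold change 0.92), K382R replicate 2 (0.99) or K382R replicate 3 (0.99), which left 1 gene past 2-fold. Soat2, the second enzyme of cholesterol esterification, rose from 8.0 ± 0.662 to 15.8 ± 0.944 TPM (log2 fold change 0.94, adjusted p = 5.89e-05, and 1.09 after median-ratio scaling), while Soat1 had −0.17. Lrp8, a receptor of apolipoprotein E, fell from 20.3 ± 4.33 to 10.2 ± 2.16 TPM (log2 fold change −0.96, adjusted p = 0.0036). The smaller decrease of Scarb2, a lysosomal membrane protein (log2 fold change −0.18, adjusted p = 0.00284), was not called after median-ratio scaling, with a log2 fold change of −0.03.

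**Figure D4:**
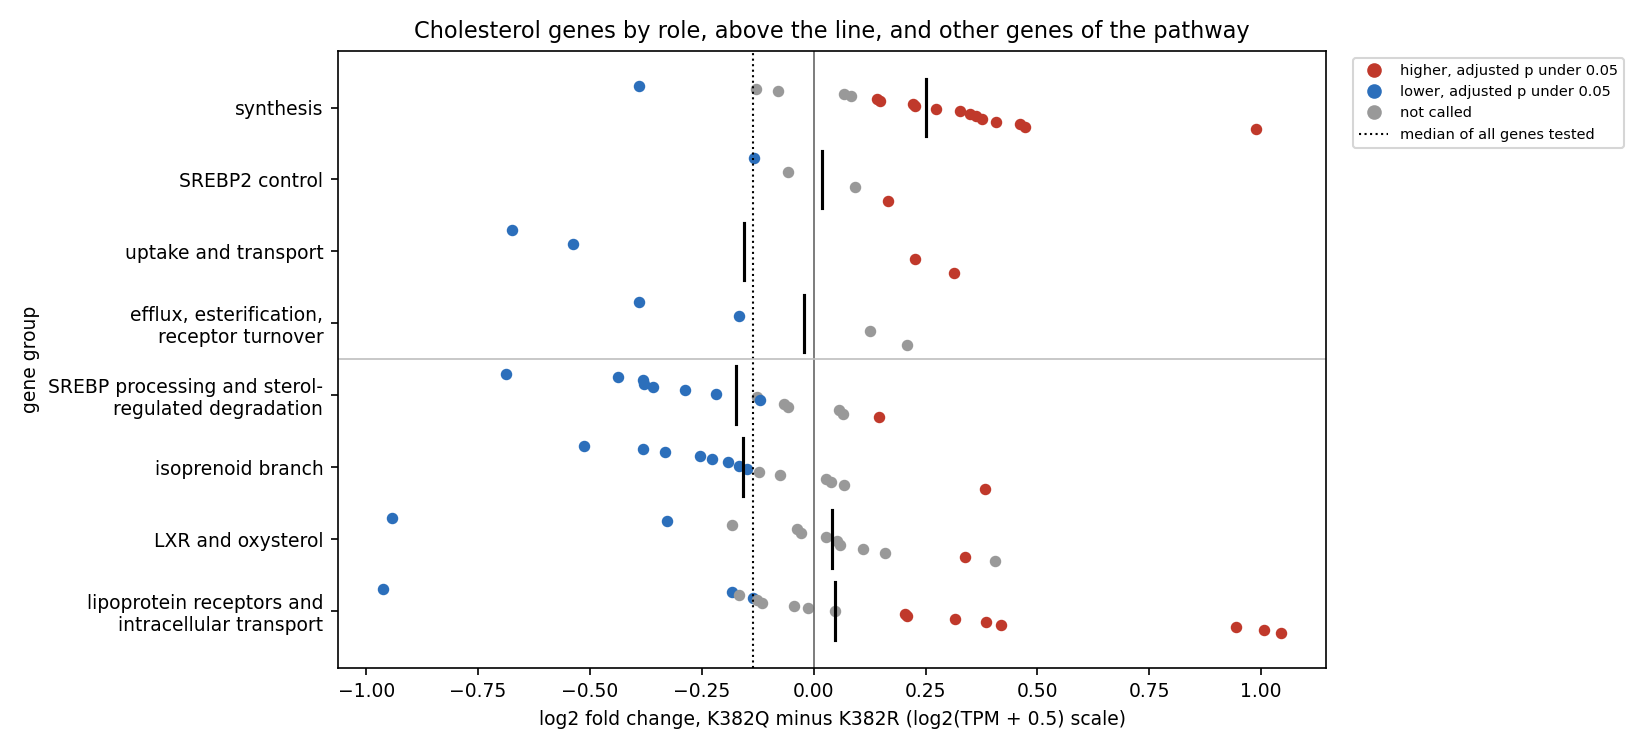
Log2 fold changes (K382Q minus K382R, log2(TPM + 0.5) scale) of the 4 roles of the 30 genes, above the grey line, and of the 4 lists of other pathway genes below it. Each point is a gene (red higher, blue lower, grey not called), short vertical bars are list medians and the dotted line is the median of all genes tested at −0.14. Synthesis enzymes lie mostly to the right, with a median of 0.25, and the genes of SREBP processing mostly to the left, with a median of −0.17.

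Markers of the cells were read beside these results. Of 8 adipocyte markers, 2 were higher in K382Q cells (Fabp4 and Cidec), 4 were lower (Pparg, Adipoq, Cebpa and Lpl) and 2 were not called, beside 11.1% higher and 36.9% lower over all genes tested. After median-ratio scaling 3 were higher and 3 lower, beside 19.9% and 20.4%. With quantile normalization, both higher calls were lost, with a log2 fold change of 0.07 for Cidec (adjusted p = 0.221) and no difference for Fabp4, whose values this method made equal in all libraries. Their summed level was 52790 to 56467 TPM in K382Q and 44392 to 45595 TPM in K382R cells, most of it from Fabp4. The 6 progenitor and fibroblast markers that passed the minimum, of 8, were all lower in K382Q cells, before and after median-ratio scaling, with a median log2 fold change of −0.82. Their list summed to between 570 and 615 TPM in K382Q and between 940 and 978 TPM in K382R cells, with Dpp4 at 0 and Cd34 below 1 TPM in every library. The part of a different mix of precursors and adipocytes in the cholesterol results was not tested, and in bulk RNA, fewer cells of a type and less RNA per cell cannot be told apart. Leukocyte markers summed to at most 5.27 TPM, with Adgre1 and Cd3e at 0 in every library and 7 of 8 below 1 TPM. Endothelial markers summed to at most 2.28 TPM, with 5 of 6 below 1 TPM, and all 6 neural and epithelial markers were below 1 TPM, with sums of 0.316 to 0.439 TPM in K382Q and 1.36 to 1.86 TPM in K382R cells.

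Some of the genes share exon bases with a neighbour, and the strand setting of the authors' quantification is not given in the sources used here. In the GENCODE annotation of GRCm39, 17 of the 30 genes share exon bases with another gene, and 8 of them with a gene at a mean of 10 TPM or more. The share was largest for Fdft1, where 24.8% of exon bases (1184 of 4779) lie opposite Ctsb, which had a mean of 352 TPM and a log2 fold change of −0.66. Without strand, reads of Fdft1 and Ctsb cannot be told apart there, so the level and the difference of Fdft1 are uncertain, and the part of Ctsb in them was not tested. In the same way Npc2 shares 9.67% of its exon bases with Isca2, Npc1 shares 9.52% with Rmc1, Nsdhl shares 8.97% with Cetn2, Acat2 shares 5.48% with Tcp1 (a mean of 372 TPM and a log2 fold change of −0.19) and Sqle shares 5.29% with Washc5. Tm7sf2 shares 10.8% with Vps51 on the same strand. For Cyp51, 21.1% of exon bases lie opposite Akap9, whose mean of 9.91 TPM is just below this 10 TPM minimum (log2 fold change −0.10). Acat2 also has a close copy beside it, Acat3, at means of 18.7 TPM in K382Q and 22.6 TPM in K382R cells, and reads could be split between them. Pmvk, Fdps and Msmo1 share no exon bases with another gene in that annotation. Some partners of the other genes, such as those of Mvd and Lss, have no level in the tables.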

How the data were processed

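RNA-seq libraries from 3 replicates of PPARγ2 K382Q- and 3 of K382R-overexpressing mouse SVF cells at day 2 were used. The authors trimmed the reads with TrimGalore 0.6.7, aligned them with HISAT2 2.2.1 (GRCm39), sorted them with SAMtools 1.14 and used StringTie 2.2.1 to quantify genes. The annotation release and the strand setting are not given in the sources used here. The authors deposited 1 StringTie gene table per library, with TPM (scaled to the same total in each library), FPKM and coverage (mean read depth per base, the signal column). Repeated gene IDs, 3 to 5 entries per library, were summed. The total aligned length was taken as the most frequent ratio of the deposited coverage to the deposited FPKM. Read counts were not analysed here, so no counting interval is given, and the number of replicates limits the precision.

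For the comparison of the mutants, log2(TPM + 0.5) values of the 15426 genes that reached 0.5 TPM in at least 3 libraries were fitted in limma 3.58.1 (R 4.3.3, trended variance), and p-values were adjusted by Benjamini-Hochberg over all of them. A gene was called at an adjusted p under 0.05, and a 2-fold change was reported beside it. The pseudocount makes fold changes of low genes look smaller. The test was tried on simulated data first. All 30 genes are named, and from each other pathway list the up to 3 largest increases and decreases among called genes. Results for some single genes are not given. The genes and lists were chosen with earlier results of these data known, so no test was run over a list. Alternatives were other pseudocounts and filters, FPKM, median-ratio scaling, quantile normalization, no trend, array weights, a replicate block and leaving out each library. Any pair of libraries had the same value in no more than 0.0583% of genes, so none was a copy of another. Promoter windows came from RefSeq (GRCm38.p6), whereas gene coordinates are those of the tables (GRCm39).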

Additional observations from a re-analysis of the deposited data

How the results depend on the processing

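Under the 16 alternatives, 12 of the 16 higher genes (Hmgcs1, Pmvk, Mvd, Idi1, Fdps, Sqle, Lss, Cyp51, Msmo1, Nsdhl, Npc1 and Stard4) and 4 of the 6 lower genes (Dhcr7, Lrp1, Npc2 and Abcg1) kept their direction and call in all of them. The number of higher genes ran from 13 to 22 and that of lower genes from 4 to 6 (14 to 17 and 4 to 6 when single libraries were left out). The split of higher to lower, 16 to 6 on the deposited scale, was 22 to 4 with median-ratio scaling and 20 to 4 with quantile normalization or with FPKM. The calls over the whole table also moved, from 1717 higher and 5698 lower to 3069 and 3143, 2954 and 3241, and 2368 and 4135. The count past 2-fold, 0 as reported, was 1 with any of FPKM, median-ratio scaling or quantile normalization, and 0 to 1 when single libraries were left out, and the gene was Lss each time. The median log2 fold change of the 30 genes was 0.24 with FPKM, 0.31 with median-ratio scaling, 0.30 with quantile normalization, and 0.14 to 0.17 with libraries left out. Small differences changed sign with the scale. Acat2 had 0.00409 with FPKM, 0.0726 with median-ratio scaling and 0.0103 with quantile normalization, and Srebf2 had 0.0262, 0.0948 and 0.0422. Mvk had 0.0223 and 0.0304 and Scap 0.0197 and 0.0298 after median-ratio scaling and after quantile normalization. Each of these settings rescales all libraries, and which scale is closer to absolute amounts was not tested.

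Without a filter on low values, the adjusted p was 0.0505 for Fdft1, 0.0761 for Tm7sf2 and 0.0879 for Ebp, and without the intensity trend it was 0.0843 for Ebp. Acat2 was called lower without K382Q replicate 3 (adjusted p = 0.0337 by limma with Benjamini-Hochberg adjustment). The deviations of same-numbered libraries had correlations of −0.018, 0.051 and 0.022. Libraries with different numbers had correlations from −0.064 to 0.039. With 3 libraries per group and labels that do not describe the set-up, these values cannot settle whether the numbers pair the samples. With the replicate number as a block, 15 genes were higher and 5 lower, Ebp (adjusted p = 0.0577) and Soat1 (0.0551) being lost, and the calls over the whole table were 1600 higher and 5387 lower. The tables give no read counts, so the counting error of low genes is unknown.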
